A study of Mus musculus with 360 samples.

Results

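The cells described here are the single cells of 3 mouse skeletal tissues that carried reads of Acta2, the gene of smooth muscle alpha actin. A cell was counted as an Acta2 cell when it had at least 500 genes with a read, at least 10000 reads and at least 5 reads of Acta2, so that the cells were chosen by their measured Acta2 reads. Of 239 passing cells, 69 met the rule. Another 165 passing cells had 0 Acta2 reads and served as the cells they were compared with, called zero cells below, and 5 cells with 1 to 4 Acta2 reads were placed on neither side. The whole series held 360 cells, of which 325 passed.

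All cells came from wild-type CD-1 mice at postnatal day 3. They were taken from the posterior frontal (PF) and coronal (COR) sutures of the skull, the fibrous seams between calvarial bones, and from the growth plate (GP) of the tibia. They had been sorted as skeletal stem and progenitor cells, positive for CD51 and CD200, lacking the blood and endothelial markers CD45, Ter119 and Tie2, and negative also for CD105, 6C3 and both Thy1 forms, and each suture had been cut out with the bone edges, dura mater and periosteum around it. Single cells were profiled by a full-length, plate-based protocol on 2 plates per tissue, here called tables, and sagittal suture cells entered no comparison. The sources used here tie no cell to an animal, so each tissue is 1 sample and no statistical test was made between groups. Intervals given below are exact 95% intervals that cover counting error only, and reads of this protocol are not independent molecules.

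Smooth muscle alpha actin assembles into the contractile filaments of vascular smooth muscle and of some pericytes, the mural cells wrapped around small vessels. It also appears in stress fibres of mesenchymal cells, including myofibroblasts and subsets of periosteal and sutural progenitors, where it is used as a lineage marker. Transgelin (Tagln) and the regulatory myosin light chain Myl9 belong to the same contractile apparatus, and the promoters of many genes of this apparatus are known targets of serum response factor, which binds a short A- and T-rich element called the CArG box. In NCBIM37, the mouse build mm9 used for these files, Acta2 lies on the minus strand at chr19:34315580-34329826, Tagln on the minus strand at chr9:45737711-45744141 and Myl9 on the plus strand at chr2:156601156-156607394.

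The 250 bases before the annotated start are shown for Acta2 and Myl9, 2 of the 3 marker genes, and for Cnn2, a calponin of non-muscle cells, because these windows hold the CArG boxes referred to below. Sequences are those of RefSeq in GRCm38.p6, read 5′ to 3′, with CArG boxes in capitals. They span chr19:34255374-34255623 on the minus strand for Acta2, chr2:156775214-156775463 on the plus strand for Myl9 and chr10:79988350-79988599 on the plus strand for Cnn2.
Acta2: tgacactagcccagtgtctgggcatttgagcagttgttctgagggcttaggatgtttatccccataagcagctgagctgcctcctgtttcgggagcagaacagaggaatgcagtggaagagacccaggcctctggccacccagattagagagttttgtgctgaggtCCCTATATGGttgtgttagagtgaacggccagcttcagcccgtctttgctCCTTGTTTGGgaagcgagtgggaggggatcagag
Myl9: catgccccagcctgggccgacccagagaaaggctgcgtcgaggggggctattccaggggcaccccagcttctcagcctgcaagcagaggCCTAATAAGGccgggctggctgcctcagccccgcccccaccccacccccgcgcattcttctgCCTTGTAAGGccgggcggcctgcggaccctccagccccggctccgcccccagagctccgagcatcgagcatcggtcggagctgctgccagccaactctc
Cnn2: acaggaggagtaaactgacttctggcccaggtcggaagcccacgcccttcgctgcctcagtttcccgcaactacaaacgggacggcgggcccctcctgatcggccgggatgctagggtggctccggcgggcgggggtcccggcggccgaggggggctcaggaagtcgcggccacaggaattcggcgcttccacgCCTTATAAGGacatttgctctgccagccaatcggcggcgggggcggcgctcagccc
The Myl9 window held a strict CArG box 161 bases before the start and the Cnn2 window held another 56 bases before it. The boxes of Acta2 and the second box of Myl9 each differ from the strict form by 1 base in the centre of the element. The element reads as the same pattern on both strands, so that a single search covered both.

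Acta2 cells made up a similar share of the cells of both sutures and a smaller share of the growth plate. In PF, 29 of 87 passing cells were Acta2 cells, or 33.3% (23.6 to 44.3). In COR, they were 28 of 74 cells, or 37.8% (26.8 to 49.9). In GP, 12 of 78 cells met the rule, or 15.4% (8.2 to 25.3), and GP plate 1 held only 2 of them. Shares also differed between the plates of a tissue, at 41.2% and 28.3% in PF and 56.2% and 32.8% in COR. The zero cells numbered 57, 45 and 63 in PF, COR and GP.

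The Acta2 level spanned more than 3 orders of magnitude. Levels are given as CPM, the reads of a gene per 1000000 reads of the cell, with the ribosomal precursor gene Rn45s left out of the total. The Acta2 levels follow from the rule and are a description. In PF the lowest, median and highest cells had 206.5, 954 and 15875 CPM, in COR 27.6, 728 and 7587 CPM, and in GP 37.7, 1164 and 85895 CPM. The threshold cut through a gap, since the members with the fewest Acta2 reads had 13, 15, 15 and 19 and the 5 cells on neither side had 1 or 2. A single GP cell gave 69.3% of all Acta2 reads of GP.

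**Figure D1:**
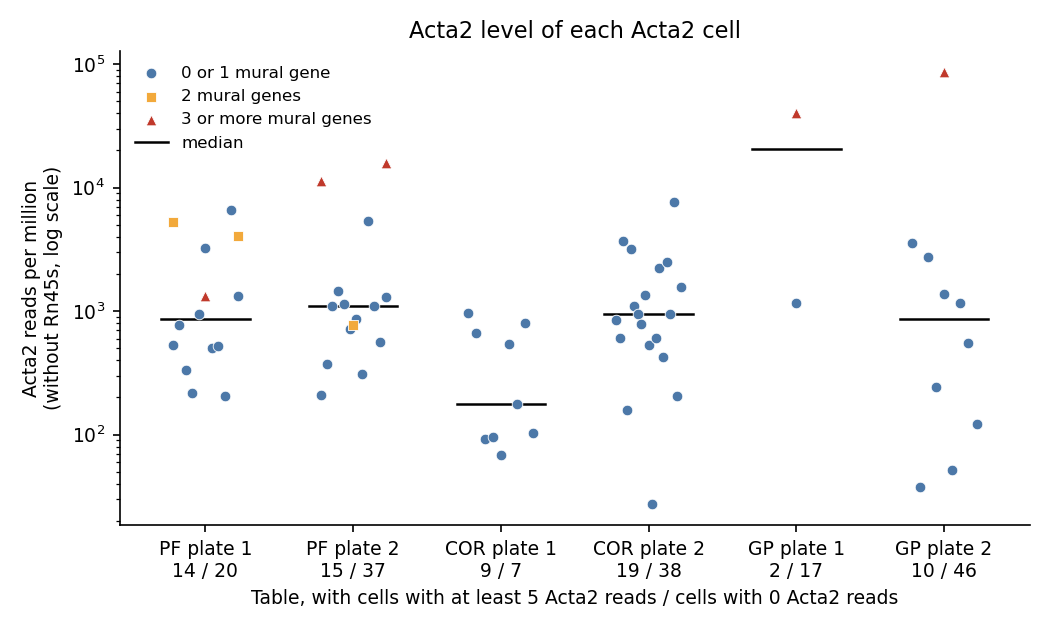
Acta2 CPM (log scale) of each of the 69 Acta2 cells by tissue and plate, with the number of Acta2 cells and zero cells under each table, the table median as a line and the number of mural genes as symbol. The 4 highest cells, at 11368 CPM or more, have 3 or more mural genes and lie in PF plate 2 and the GP plates.

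Within tables the median total without Rn45s was higher in Acta2 cells than in zero cells on PF plate 1 (174650 against 123212 reads), both COR plates (194051 against 152345 and 527042 against 497866) and GP plate 2 (490386 against 401429). It was lower on PF plate 2 (453312 against 541971) and GP plate 1 (214758 against 227388). Acta2 cells had more genes with a read, with medians of 2599 against 2485 in PF, 3764 against 3256 in COR and 3614 against 2937 in GP. After thinning to 100000 reads per cell the order was the same, at 2598 against 2397, 3593 against 3053 and 3365 against 2825. Each Acta2 cell had between 38859 and 806957 reads.

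A small group of the Acta2 cells carried genes of mural cells. A list of 12 mural genes held Rgs5, Kcnj8, Abcc9, Higd1b, Cox4i2, Notch3, Myh11, Gja4, Vtn, Rergl, Steap4 and Aoc3, and a cell with at least 3 of them at 5 or more reads each was set apart as pericyte-like. Myh11 of this list is a smooth muscle gene, so the name covers smooth muscle cells of vessels as well as pericytes. The rule took 5 cells, 3 in PF, 2 in GP and 0 in COR. Another 3 cells, all in PF, had 2 such genes, 11 cells had 1 and 50 cells had 0, so that the class is a range cut from a count of genes. The 5 cells gave 61.5% of all Acta2 reads.

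Of these 5, 4 cells with low Col1a1 were grouped after their values were seen. They stood apart from the other 65 Acta2 cells in Acta2, Myh11 and Tagln. Acta2 chose the members, and Myh11, Rgs5, Notch3, Gja4 and Kcnj8 are in the mural list that set these cells apart. The levels of these genes are therefore descriptions, and Tagln was in neither rule. The 4 cells are wells B5 and E11 of PF plate 2, well A8 of GP plate 1 and well A3 of GP plate 2. Their Acta2 levels were 11368, 15875, 39913 and 85895 CPM, all above the 7587 CPM of the highest other cell. Myh11, the heavy chain of smooth muscle myosin, had 17420, 8259, 3959 and 1482 CPM in these wells in that order, whereas 64 of the other 65 cells had 0 and the last had 5.8 CPM. Tagln had 930, 3454, 2951 and 7340 CPM in them, against a highest value of 415 CPM elsewhere. Myl9 was between 10557 and 31225 CPM.

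The same 4 cells differed among themselves in which mural genes they carried. Rgs5, a G protein regulator typical of pericytes, had 5786 CPM in A3, 2114 in B5, 58.4 in E11 and 0 in A8. Notch3, the receptor required for arterial mural cells, was read in all 4, from 71.4 to 2943 CPM. Gja4, a gap junction gene, was read in 3 of them at 909 to 1967 CPM, and in no other Acta2 cell and no zero cell. The channel gene Kcnj8 was read only in B5 among the 4, at 1118 CPM, and Cnn1, Lmod1 and Synpo2, of the smooth muscle apparatus, were read only in the 2 GP cells. Higd1b, Vtn and Steap4 were at 0 in all 4. The smooth muscle genes Actg2 and Myh11 were read in all 4, and the name pericyte-like does not tell pericytes from smooth muscle cells.

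These 4 cells were separated from the remaining cell of the mural rule by low Col1a1. Their low fibrillar collagen therefore follows from that choice and is a description. The sum of Col1a1, Col1a2 and Col3a1 lay between 176 and 3649 CPM in them. In the other 65 cells it lay between 1358 and 313839 CPM with a median of 111889 CPM, close to the 117167 CPM median of the zero cells. The overlap came from 1 cell, well A9 of GP plate 2, with 38 Acta2 CPM and 438929 CPM of Spp1. Runx2, Sp7, Ibsp, Pdgfra and Twist1 were at 0 in all 4 cells. Type IV collagen Col4a1, of basement membranes, was read in all 4 at 1497 to 3798 CPM. The endothelial genes Pecam1, Cdh5, Kdr, Emcn and Tek and all 8 listed haematopoietic genes were at 0 in them. Esam, of the same endothelial list, was read in all 4, from 6.49 to 1493 CPM. Of the genes behind the sort, Itgav, which encodes CD51, was read in 1 of the 4, Cd200 in 2, and Eng, which encodes the negative marker CD105, in 1 at 110 CPM.

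**Figure D2:**
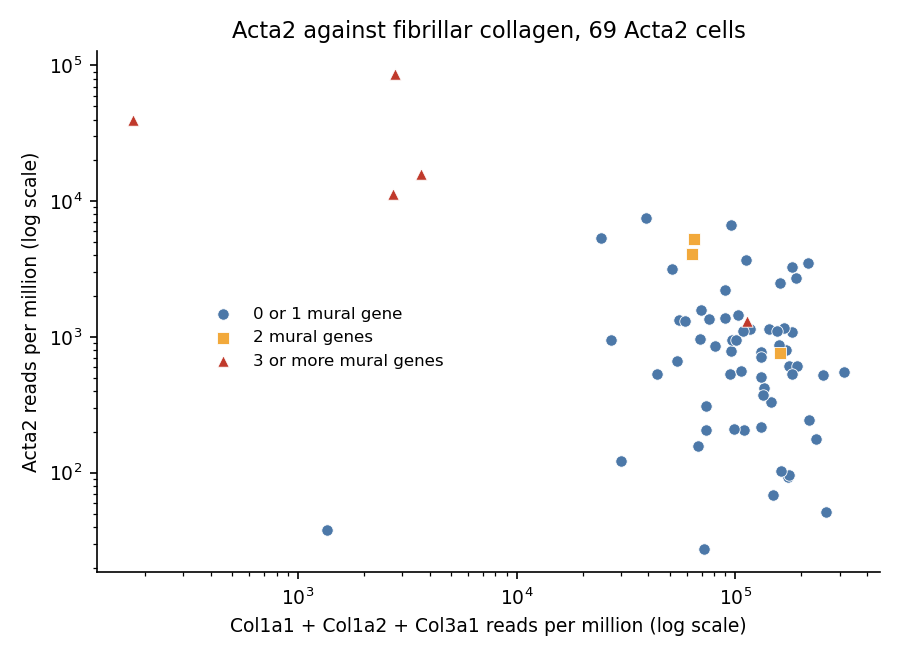
Acta2 CPM against the summed CPM of Col1a1, Col1a2 and Col3a1 (both log scales) for the 69 Acta2 cells, with the number of mural genes as symbol. 4 cells with 3 or more mural genes lie at high Acta2 and at most 3649 CPM of collagen, and the fifth lies among the collagen-rich cells at 1322 Acta2 CPM.

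The fifth cell that met the mural rule, well C9 of PF plate 1, went against its name. It had Rgs5, Abcc9 and Vtn at 297, 225 and 441 CPM but 0 reads of Myh11 and Tagln, and it carried 30953 CPM of Col1a1, 48098 of Col3a1 and 711 of Pdgfra. The 3 PF cells with 2 mural genes were collagen-rich as well, with Notch3 and Steap4 in 2 of them and Kcnj8 and Abcc9 in the third. Of the 12 genes, Steap4, Cox4i2, Abcc9 and Kcnj8 were also read in 26, 15, 8 and 6 of the 165 zero cells. Rgs5, Myh11, Gja4 and Rergl were read in 0 of 165 zero cells, which allows a share of up to 1.82% when 3 cells are taken as the limit, or 2.21% as the upper end of the exact interval.

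With these 5 cells left out, 64 Acta2 cells remained, and they had the genes of collagen-producing mesenchyme, as did most zero cells. Col1a1, Col1a2 and Col3a1 were read in 64 of 64 cells and in 160, 161 and 143 of the 165 zero cells. Col1a1 ranged from 580 to 189453 CPM with a median of 49802, and Postn, periostin of fibrous tissue, was read in 58 cells with a median of 3387 CPM. Pdgfra was read in 33 of the 64, Prrx1 in 51 and Twist1 in 23. In the zero cells Postn, Pdgfra, Prrx1 and Twist1 were read in 116, 82, 113 and 49 of 165. Both sort genes, Itgav and Cd200, were read together in 23 of 64 Acta2 cells and in 35 of 165 zero cells. Of the 12 mural genes at least 1 was read in 17 of the 64 cells and in 56 of the 165 zero cells. Cox4i2 was read in 7 of the 64, Steap4 in 6 at up to 2118 CPM and Notch3 in 5 at up to 839 CPM, whereas Rgs5 and Aoc3 were each read in 1 cell at no more than 8.7 CPM.

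Contractile genes in these 64 cells were partial. Tpm1 and Tpm2, tropomyosins that lie along actin filaments, were read in 62 and 56 cells. Myl9 was read in 49, from 0 to 10683 CPM with a median of 353. Tagln was read in only 22, at no more than 415 CPM, and 13 cells had reads of neither Tagln nor Myl9. Cnn1 and Myh11 were each read in 1 cell, and Lmod1, Des and Synpo2 in 0. The label's 3 markers thus occurred together in 20 of 64 cells, against 9 of 165 zero cells with Tagln and Myl9.

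The shares of cells with a read differed at equal depth. Thinned to 100000 reads, with 7 Acta2 cells and 22 zero cells too shallow and left out, Tpm2 was read in 86% of the Acta2 cells and 41.3% of the zero cells. For Myl9 these shares were 77.2% and 47.6%, and for Tagln 33.3% and 5.59%. Without thinning they were 87.5% and 40.6% for Tpm2, 76.6% and 45.5% for Myl9, and 34.4% and 6.06% for Tagln. For these unthinned shares the exact interval of the Acta2 cells lay above that of the zero cells. The intervals cover counting error only and are no test between groups. They pool tissues in unequal parts, since GP gave 10 of the 64 Acta2 cells and 63 of the 165 zero cells.

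**Figure D3:**
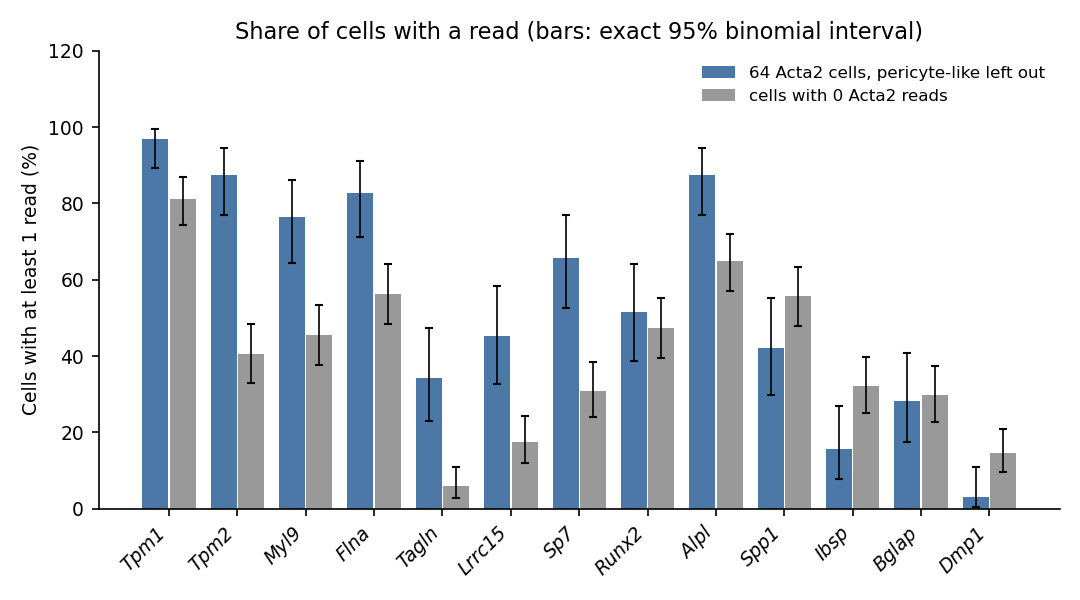
Percent of cells with at least 1 read of 13 genes in the 64 Acta2 cells left after setting aside the pericyte-like cells (blue) and in the 165 zero cells (grey), with exact 95% binomial intervals as error bars. Tpm1, Tpm2, Myl9, Flna, Tagln, Lrrc15, Sp7 and Alpl are read in a larger share of Acta2 cells, with intervals that do not overlap. Spp1, Ibsp and Dmp1 are read in a smaller share and Runx2 and Bglap in similar shares, with intervals that overlap.

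Across genes, reads were summed over the cells of each side within a table and compared as a log2 ratio with 10 CPM added to both sides. GP plate 1, with 2 Acta2 cells, was too small for a ratio, so 5 tables were used. A gene was called when its median ratio over tables was at least 1, or at most −1, and all 5 tables had the same sign. Of 9256 genes with at least 10 CPM on either side, 86 were called higher in Acta2 cells, or 0.929%, and 105 lower, or 1.13%. With the 5 pericyte-like cells left out, 71 of 9178 genes (0.774%) were called higher and 117 (1.27%) lower, and 63 of the higher and 97 of the lower calls were shared. The median ratio over all genes was 0.03.

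Myl9, a marker of the cells, had the highest median ratio among the called genes with at least 50 CPM in Acta2 cells and no more than 50% of their reads from 1 cell. Its summed level was 1619 CPM in Acta2 cells and 209 CPM in zero cells of PF, 481 and 72.5 CPM in COR, and 3107 and 361 CPM in GP. Without the pericyte-like cells the PF and GP levels were 879 and 593 CPM, still above the zero cells. Its median log2 ratio was 2.89 over tables, between 2.21 and 3.43, and 2.24 without these cells. Tagln had a median ratio of 2.29, with 152, 45.3 and 619 CPM in PF, COR and GP against 0.991, 4.25 and 5.86 CPM in the zero cells. Without the pericyte-like cells its levels in PF and GP were 58.2 and 32.7 CPM, and its median ratio 2.09.

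Of the 15 contractile genes listed, all had reads and 12 passed the level filter, of which 4 did so only through the Acta2 cells. Myl9, Tagln, Tpm2, Tgfb1i1 and Tpm1 were called higher and 0 genes lower. Tagln, with 2.61 CPM in zero cells as the mean over tables, was among those 4, so that its direction followed from the filter. The list's median ratio was 1.30, or 1.07 over all 15 genes, against 0.03 over all genes. Tpm2 had a ratio of 2.21 and summed levels of 378, 283 and 783 CPM in Acta2 cells of PF, COR and GP against 73.2, 57.9 and 70.1 CPM in zero cells. Tgfb1i1, the focal adhesion protein Hic-5, had a ratio of 1.28 and Tpm1 of 1.07.

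The remaining contractile genes did not keep 1 sign in all tables, or fell short of the median. Csrp1, a LIM protein of smooth muscle, had a median ratio of 1.32 with 1 table below 0, and Mylk, the myosin light chain kinase, of 1.38 with 1 table below 0. Actg2, enteric smooth muscle actin, had a median ratio of 1.78 and no reads on either side in 1 table. Cald1 and Smtn, caldesmon and smoothelin, had ratios of 0.80 and 0.35. Cnn1 and Myh11 had a median of 0.00, since they were read in few tables, and 9303 of the 9305 Myh11 reads of Acta2 cells lay in the pericyte-like cells. With those cells left out, Myl9, Tagln, Tpm2 and Tgfb1i1 were still called and Tpm1 had a ratio of 0.91. The list's median was then 1.21.

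Of 20 listed genes of the general actin cytoskeleton, all passed the filter, 5 were called higher and 0 lower (4 and 0 without the pericyte-like cells), 13 had ratios above 0 in all 5 tables, and the median ratio was 0.75. The 5 were the actin cross-linker Flna (1.54), the calponins Cnn2 (1.39) and Cnn3 (1.11), the tropomyosin Tpm4 (1.26) and Vcl, vinculin of focal adhesions (1.09). The cytoplasmic actins Actb and Actg1 had ratios of 0.83 and 0.82. Flna rested on many cells, being read in 53 of the 64 cells and 93 of 165 zero cells. The YAP target list gave a median of 0.29 over the 10 genes that passed, with 0 called, including Ctgf at −1.27 and Cyr61 at 0.89.

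The windows before the gene starts can be read beside these calls. Of Acta2 and the 10 called contractile and actin genes, 9 had an entry among the 32851 promoter windows, with Tagln and Tgfb1i1 absent. A strict CArG box was found in 3 of the 9, Myl9, Cnn2 and Vcl, and in 1.47% of all windows. A box with at most 1 changed centre base was found in those and in Acta2, 4 of the 9, and in 8.59% of all windows. Tpm1, Tpm2, Flna, Tpm4 and Cnn3 held neither form in these 250 bases.

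Of 13 osteoblast genes, all passed the filter, 3 of them only through the zero cells, 5 were called lower and 0 higher, and the median ratio was −1.15. The 5 were Dmp1 (−6.79), Spp1 (−5.84), Bglap (−2.86), Ibsp (−2.77) and Bglap2 (−2.68), which encode proteins of mineralizing matrix, and Phex, Ifitm5 and Mepe were not called. Dmp1, with 6.15 CPM in Acta2 cells as the mean over tables, passed only through the zero cells, so that its direction followed from the filter. With the mean of the cells' own CPM 3 of the 13 were called lower. Dmp1, a marker of osteocytes, had 0 reads in the 29 Acta2 cells of PF against 1980 CPM in the zero cells. By cells the contrast was small. It was read in 0% (0 to 13.2) of the 26 PF Acta2 cells without the pericyte-like ones and in 17.5% of 57 zero cells. Well D3 of PF plate 2 gave 71.3% of the Dmp1 reads of these zero cells, and without it they had 592 CPM. In COR its summed level was 25.7 against 834 CPM and in GP 0.176 against 109 CPM. It was read in 2 of 64 Acta2 cells and 24 of 165 zero cells.

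Summed levels of these genes came from few cells. Spp1, osteopontin, reached 472935 CPM in a COR Acta2 cell and 438929 CPM in the GP cell A9, and its summed level in COR was 28789 CPM in Acta2 and 64175 CPM in zero cells. In PF it was 345 against 42683 CPM. The share of cells with an Spp1 read differed less, at 42.2% (29.9 to 55.2) of 64 Acta2 cells and 55.8% (47.8 to 63.5) of zero cells. Bglap, osteocalcin, was read in 28.1% and 29.7% of cells, but in 3 of 26 and 19 of 57 cells of PF, 9 of 28 and 20 of 45 of COR, and 6 of 10 and 10 of 63 of GP. Ibsp was read in 15.6% (7.76 to 26.9) and 32.1% (25.1 to 39.8).

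Other members of the osteoblast list were not called, among them genes of earlier stages. Sp7, the transcription factor osterix of committed osteoblast precursors, had a median ratio of 1.16 and was read in 65.6% (52.7 to 77.1) of the 64 Acta2 cells against 30.9% (24 to 38.6) of zero cells. Thinned to 100000 reads these shares were 68.4% and 33.6%. By tissue it was read in 25 of 28 Acta2 cells and 19 of 45 zero cells of COR, in 6 of 10 and 12 of 63 of GP, and in 11 of 26 and 20 of 57 of PF, where the ratio was 0.31 on plate 1 and −0.42 on plate 2. Alpl and Dlx5 had ratios of 0.30 and 0.62, and Runx2 had 0.35, or −0.68 when the cells' own CPM were averaged. Sp7 without Spp1 was read in 19 of 64 Acta2 cells and 13 of 165 zero cells, whereas Sp7 with Spp1 was read in 23 and 38.

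Fibrous matrix genes showed no common direction. All 23 listed passed the filter, 0 were called, and the median ratio was 0.31. Loxl2, Postn and Col12a1 had median ratios of 1.12, 1.09 and 0.82, while Fbn2, Fbn1 and Thbs1 had −1.02, −0.88 and −0.64. Eln, elastin, had 0.99 with all Acta2 cells and −2.00 without the pericyte-like cells, which held 57.2% of its reads in Acta2 cells. The type I collagen genes Col1a1 and Col1a2 had −0.61 and −0.47.

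Few genes of other groups were called. Among 15 cartilage genes that passed, Col11a2 was called lower at −2.44 and the median was −0.08. Among 13 skeletal progenitor genes 0 were called, with Ly6a at 1.44 and Pthlh at −1.31 and a median of −0.13. Of 12 TGF-beta genes Skil, a feedback repressor, was called lower at −1.33, and of 6 tendon genes Tnmd, tenomodulin, was called lower at −1.52. Of 11 cell cycle genes Rrm2, a subunit of ribonucleotide reductase, was called higher at 1.68. Of 10 immediate early genes, which respond within minutes to stimulation and to tissue dissociation, Ier2 and Egr1 were called lower at −1.10 and −1.07, and the median was −0.50. With Rn45s in the totals 0 of the 10 were called, and with the mean of the cells' own CPM 1 was.

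Marker lists of other cells had medians near 0 over tables, but not in each table. Of 11 endothelial genes 1 passed the filter, Esam, read in 4 pericyte-like cells at up to 1493 CPM and in none of the other 64. Its ratio was 3.24 on PF plate 2, 3.17 on GP plate 2 and 0.00 in the other tables. Of 8 haematopoietic genes 1 passed, Lyz2, with a median of 0.00, but 2.66 and 1.58 on the PF plates and −0.72 on COR plate 2. Of 6 glial genes 3 passed and 0 were called. The glial median was −2.05 on PF plate 2, −1.96 on COR plate 2 and −3.02 on GP plate 2. It was 0.00 on the first plates of PF and COR. Of 9 genes shared by mural cells and fibroblasts, such as Pdgfrb at −0.35 and Rgs4 at 0.43, all passed and 0 were called, with a median of 0.32. Of the 12 mural genes 9 passed, 5 of them only through the Acta2 cells, 0 were called and the median was 0.00.

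**Figure D4:**
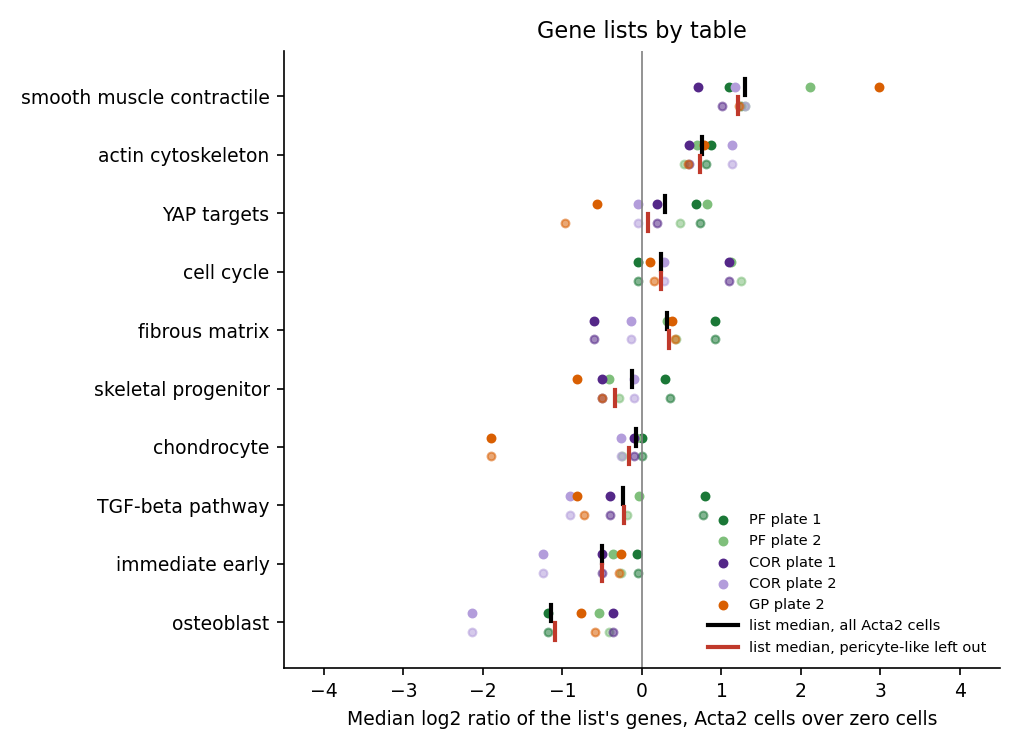
Median log2 ratio of 10 gene lists, Acta2 cells over zero cells, in each of 5 tables (points) and over tables (lines), with all Acta2 cells (dark points, black line) and with the pericyte-like cells left out (pale points, red line). The contractile and actin lists lie above 0 and the osteoblast list below 0 in all 5 tables, and the fibrous matrix list lies on both sides.

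Over all genes, the 12 highest medians among called genes with at least 50 CPM and no dominant cell included genes outside the contractile list. They were, in order, Myl9, Wnt5b, Rcc1, Tpm2, Bok, Lcp2, Lrrc15, Cdr2, Rrm2, Sytl2, Cnrip1 and Flna. Wnt5b, a non-canonical Wnt ligand, had a ratio of 2.64 and was read in 15 of the 64 Acta2 cells and 13 of the 165 zero cells. In PF it was read in only 3 of 26 Acta2 cells and in 0 of 57 zero cells. Bok, a member of the Bcl-2 family, had 2.04 and was read in 23 of 28 Acta2 cells and 10 of 45 zero cells of COR. Lrrc15, a membrane protein known from activated fibroblasts, had 1.93 and was read in 29 of 64 and 29 of 165 cells, of which PF held 2 and 5. Cdr2 and Sytl2 were not called once the pericyte-like cells were left out.

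The 12 lowest medians were led by the bone matrix genes Dmp1 and Spp1. Enpp6, a choline phosphodiesterase, followed at −3.26 and was read in 9, 9 and 6 zero cells of PF, COR and GP and in 1 Acta2 cell, of GP. Nr4a1, an immediate early nuclear receptor, had −2.79, Vldlr −2.49, the cell cycle inhibitor Cdkn1a −2.24, the secretory kinase Fam20c, which phosphorylates bone matrix proteins, −2.17, and Col22a1 −2.16. Bglap, Ibsp, Bglap2 and Col11a2 complete the set. All 12 were called lower with the pericyte-like cells left out as well. Dmp1, Enpp6, Nr4a1 and Col22a1 had under 10 CPM in Acta2 cells as the mean over tables and passed only through the zero cells.

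**Figure D5:**
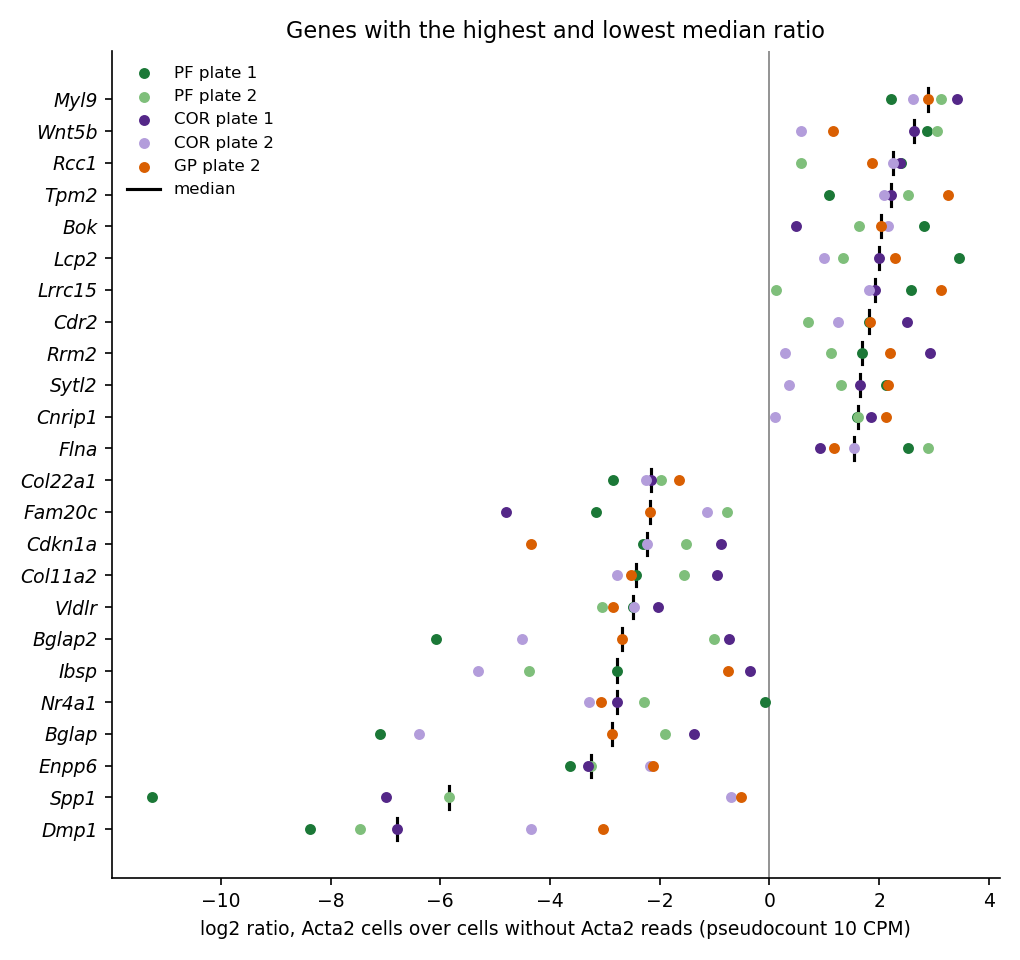
Log2 ratio, Acta2 cells over zero cells with 10 CPM added, in each of 5 tables (points) and median (line) for the 12 highest and 12 lowest called genes with at least 50 CPM on the higher side. Myl9 lies between 2.21 and 3.43, and Spp1 between −11.25 and −0.51.

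Within single tissues many more genes passed a ratio of 2-fold in the same direction on both plates. In PF 864 genes (8.97%) were called higher and 674 (7%) lower, in COR 590 (6.31%) and 646 (6.91%), and in GP, where only plate 2 gave a sign, 833 (8.93%) and 1942 (20.8%). Genes called higher in all 3 tissues numbered 11: Tagln, Myl9, Tpm2, Rcc1, Flna, Lcp2, Bok, Slc30a5, Filip1l, Bri3bp and Elmo2. Genes called lower in all 3 numbered 21, with Dmp1, Bglap, Bglap2, Nr4a1, Cdkn1a and Vldlr at the head. These calls are of summed reads. With the pericyte-like cells left out, Cdkn1a was read in 17 of 28 Acta2 and 21 of 45 zero cells of COR. In GP, Bglap was read in 6 of 10 and 10 of 63, Nr4a1 in 4 of 10 and 21 of 63, and Vldlr in 2 of 10 and 7 of 63. In their other tissues these genes were read in a smaller share of Acta2 cells. A single zero cell gave 88.6% of the Bglap reads of GP zero cells. PF and COR shared 77 higher calls. They were 8.91% of the PF calls, beside 6.31% of all genes tested in COR. They were 13.1% of the COR calls, beside 8.97% of all genes tested in PF. In GP, 10.6% of the PF and 11.2% of the COR higher calls were also called, beside 8.93% of all genes tested there. For lower calls, 8.16% of those of PF were also called in COR, beside 6.91% of all genes tested. In GP, 22.7% of the PF and 28.6% of the COR lower calls were also called, beside 20.8%. How many shared calls unrelated lists of these sizes would give was not worked out. Whether tissues differ in any of these genes was not tested.

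Single tissues were also described with the pericyte-like cells left out. Genes called higher were then 8.22% of those tested in PF, 6.31% in COR and 8.12% in GP, and genes called lower 7.35%, 6.91% and 24%. In COR, 4 of 12 cell cycle genes were called higher and 0 lower, with a median of 0.38, and Mki67 and Top2a were not called. The mitotic genes Ccnb1, Ccna2 and Birc5 were among the 4, at 196, 178 and 142 CPM in Acta2 cells against 2.02, 8.44 and 9.13 CPM in zero cells. They were read in 7, 8 and 8 of 28 Acta2 cells and 2, 4 and 3 of 45 zero cells, and 57.1% of the Ccnb1 reads of the Acta2 cells came from 1 cell. In GP the same 3 genes were called lower, at 0.391, 6.85 and 18.4 CPM against 54.8, 35.8 and 46.8 CPM, and 99.8% of the Ccnb1 reads of the zero cells came from 1 cell. In COR, the latent TGF-beta binding proteins Ltbp1 and Ltbp2 and the co-receptor Tgfbr3 were called lower, at −1.75, −3.49 and −2.29. Ltbp2 was read in 2 of 28 and 14 of 45 cells there, and in 12 of 26 and 22 of 57 cells of PF. In GP, 11 of 15 cartilage genes were called lower.

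The genes most like Acta2 across single cells included tropomyosins, myosin light chains and beta actin, beside genes of other kinds. Over 239 passing cells, with table means subtracted, the highest Spearman correlations among 5404 genes read in at least 20% of cells were those of Tpm2 (0.463), Bok (0.449), Actb (0.436), Tuba1a (0.422), Cfl1 (0.407), S100a11 (0.385), Npnt (0.384), Myl6 (0.374), Myl9 (0.373) and Tpm4 (0.365). They are descriptions over cells that share tables and depth, and they use the Acta2 values that chose the cells. Acta2 itself had a correlation of 0.067 with the reads per cell and 0.165 with the genes per cell, and the median over genes was 0.057. Without the 6 cells that met the mural rule, 5 Acta2 cells and 1 zero cell, Tpm2 had 0.430 and Bok 0.447.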

How the data were processed

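Single cells of the PF, COR and SAG sutures and the tibial GP of CD-1 mice were analysed from the read counts per gene that the authors deposited, 24015 gene rows per cell in 1 table per tissue and plate. Per the labels and the study's methods, cells were profiled by a Picelli (SMART-seq2) protocol and reads were mapped to mm9. The submitters' processing notes name STAR 2.5.3a, HTSeq, Seurat 2.3.0 and R 3.4.4. The annotation and the strand setting are not given in the sources used here, so that reads of overlapping genes cannot be told apart, nor those of the near-identical Bglap and Bglap2. Counts were used as deposited. Totals, CPM and ratios leave out Rn45s.

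Members and gene lists were chosen with earlier results of these data known. Cells were filtered (500 genes, 10000 reads, Rn45s included), split by Acta2 reads and summed per side and table. Ratios used a pseudocount of 10 CPM. Tables with fewer than 3 cells on a side gave no ratio. With 1 sample per tissue no model was fitted and no p-value is given. A ratio is on the log2(CPM + 10) scale, which understates the change of low genes. Named genes were Acta2, Tagln and Myl9, the members of the contractile and mural lists with a read, the 2 to 4 members with the highest and lowest median ratio of other lists, and the 12 highest and 12 lowest medians among genes called in all tables with at least 50 CPM on the higher side and at most 50% of that side's reads from 1 cell. Genes named for a tissue alone, the wells singled out and the set of 4 collagen-poor cells were chosen after their values were seen. Cells are single wells, and no doublet caller was run. No pair of Acta2 cells had identical counts. Python 3.11.15, numpy 2.4.6, pandas 2.3.3, scipy 1.17.1, matplotlib 3.10.9, R 4.3.3 and edgeR 4.0.16 (TMM factors only) were used. The steps were tested on simulated counts. Some genes and 1 gene list are not reported here.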

Additional observations from a re-analysis of the deposited data

Results flagged for a closer look

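Acta2 reads occurred outside the compared tissues, in the sagittal suture. There 1 of 86 passing cells, on plate 1, was an Acta2 cell, with 19 reads or 314 CPM and with reads of Myl9 and Tagln, and the other 85 cells had 0 reads. The share was 1.16% (0.0294 to 6.31), below the intervals of PF, COR and GP, and all 19 reads came from that 1 cell.

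The fibrous matrix list moved in opposite directions in PF and COR, which was not tested. Its median ratio was 0.91 and 0.31 on the PF plates and −0.61 and −0.14 on the COR plates, a difference of 0.99 between the tissue means. Eln lay in the same order, at 1.23 in PF and −2.16 in COR with the pericyte-like cells left out.

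The Notch pathway list did the same, also untested, with medians of 1.92 and 1.31 on the PF plates and −0.42 and −0.82 on the COR plates, a difference of 2.24. Without the pericyte-like cells the PF plates had 1.76 and −0.88, so that they no longer lay on 1 side. With the pericyte-like cells left out Hes1 was called higher in PF at 1.37 and lower in COR at −2.08. It was read in 12 of 26 Acta2 cells and 17 of 57 zero cells of PF, and in 8 of 28 and 20 of 45 of COR.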

How the results depend on the processing

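The contractile list kept its sign under every alternative run, with a median between 1.00 and 1.35, and between 1.13 and 1.77 when 1 table was left out. The counts of calls in all tables moved more. Higher calls, 86, were 56 with TMM factors, 48 with at least 1 Acta2 read as the rule and 141 with a pseudocount of 1 CPM, and 86 to 212 with 1 table left out, where fewer signs have to match. Lower calls, 105, were 66 with Rn45s in the totals, 68 with at least 1 Acta2 read, 193 with a pseudocount of 1 CPM and 46 at 50 CPM or more, and 105 to 234 with 1 table left out. Higher genes made up 45% of calls, and 27.6% with TMM factors (56 higher and 147 lower). Scalings moved the median of all genes between −0.02 and 0.08. At 50 CPM or more, higher calls were 491 in PF, 347 in COR and 370 in GP. With a pseudocount of 1 CPM they were 933 in COR and 1304 in GP, and with at least 1 Acta2 read 408 in GP. The osteoblast median was −2.81 with a pseudocount of 1 CPM, and −1.47 to −0.94 with 1 table left out. The fibrous matrix median, 0.31, turned to −0.11 with at least 1 Acta2 read and to −0.058 without PF plate 1 (range −0.058 to 0.42). The cause was not tested. Pericyte-like cells numbered 8 with 2 mural genes as the rule, 3 with at least 1500 genes and 50000 reads per cell, and 3 to 5 with 1 table left out. The share of Acta2 cells ranged from 28.3% to 41.2% in PF, 32.8% to 56.2% in COR and 10% to 17.2% in GP with 1 plate left out. Counting the 10000 reads without Rn45s, an alternative chosen after seeing the data, gave 86 higher and 105 lower calls. No paired analysis was possible because no result comes from a test and the cells carry no shared replicate.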

Other observations

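Of the zero cells, 1 had mural genes at the same cut. Well D9 of GP plate 2 had Abcc9, Cox4i2, Notch3 and Steap4 at 119, 50.8, 223 and 1455 CPM with 0 Acta2 reads, beside 4125 CPM of Myl9, the highest value among zero cells, and 76.2 CPM of Tagln. It also carried Runx2, Sp7, Ibsp and Spp1 at 272, 293, 1914 and 1545 CPM, and Myh11, Rgs5 and Gja4 at 0.

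Further genes led the 5 cells of the mural rule over the other 64 Acta2 cells. They were picked after their values were seen, and the split used mural genes, so they are descriptions. Sparcl1, a matrix protein, had 3436 CPM against 9.69 CPM summed over cells, Tinagl1 3786 against 8.01, and Itga7, an integrin of muscle, 1236 against 0.12. Jag1, a Notch ligand, was read in 5 of 5 and 15 of 64 cells. Its levels in the 4 collagen-poor cells lay between 1056 and 2070 CPM.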
